A study of Mus musculus with 6 samples.

Results

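Calcium enters, leaves and circulates within smooth muscle cells through channels, pumps and exchangers, and 82 protein-coding genes of this machinery were examined in smooth muscle cells of the mouse pulmonary artery (mPASMCs) after knockdown of the long noncoding RNA *Snhg18*. They were picked by gene symbol out of the 55487 genes in the count table. The set covers the voltage-gated calcium channel subunits (*Cacna1*, *Cacna2d*, *Cacnb* and *Cacng* genes), the *Stac* adaptors, the *Orai* and *Stim* genes, the *Itpr* and *Ryr* release channels, the *Atp2a*, *Atp2b* and *Atp2c* pumps, the *Slc8a* exchangers, 5 mitochondrial genes, the *Trpc*, *Trpm* and *Trpv* channels and both *Piezo* genes. *Trpc4ap* and *Trpc5os* also match the symbol pattern, although they are not channels. A total of 45 genes had enough reads to be tested and 37 did not.

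RNA was sequenced from purchased mPASMCs that had been transfected with a negative control siRNA (si-NC, labelled genotype Control, 3 libraries) or with an siRNA against *Snhg18* (si-*Snhg18*, labelled genotype Snhg18 knockdown, 3 libraries). All 6 libraries therefore came from cultured, transfected cells of the same type. The knockdown was transient, and the number of animals behind the cells, the oxygen level and the interval from transfection to harvest were not stated. The labels number the libraries 1 to 3 in each group without saying that they are separate cultures, so the p-values measure only the spread between these libraries.

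Contraction of vascular smooth muscle is set by cytosolic calcium. Calcium comes in through L-type and T-type voltage-gated channels, through TRP and Piezo channels, and through ORAI channels that the endoplasmic reticulum sensors STIM open once the store has emptied. Inositol trisphosphate receptors and ryanodine receptors release the store, SERCA pumps refill it, and plasma membrane pumps and sodium-calcium exchangers carry calcium out of the cell. STAC proteins are adaptors that bind L-type channels and affect their trafficking and inactivation.

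The knockdown was present in every si-*Snhg18* library. *Snhg18* was at 23.5, 22.4 and 22.2 CPM (reads scaled to library size, with TMM factors) in si-NC libraries 1 to 3 and at 10.6, 11.2 and 9.97 CPM in si-*Snhg18* libraries 1 to 3, so that 46.7% remained (edgeR quasi-likelihood test, adjusted p = 0.00727). Totals per library were 18097718 to 25988746 counted reads, where 3 reads equal 0.115 to 0.166 CPM. Library 2 stood apart from libraries 1 and 3 in both groups, since the counts of libraries 1 and 3 differed by a chi-square per degree of freedom of 5.93 in si-NC and 12.1 in si-*Snhg18*, and those of library 2 from either by 32.3 to 102. Deviations from the group mean across genes correlated within same-numbered pairs, at r = 0.41, 0.742 and 0.359 for numbers 1, 2 and 3. Because the 3 deviations of a group sum to 0, a library 2 apart in both groups can also give libraries 1 and 3 positive correlations. These values thus do not show that numbers 1 and 3 mark pairs. A fit blocked on the replicate number is reported as an alternative beside the calcium genes whose call it changes. Without si-NC 1, si-NC 3 or si-*Snhg18* 3 the unblocked edgeR fit called 0 genes of any kind, although 2512, 2731 and 2464 genes had an unadjusted p under 0.05, and the calls below rest on all 6 libraries.

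The cells carried the transcripts of smooth muscle. All 8 smooth muscle markers passed the filter, with summed levels of 1762 to 1909 CPM in si-NC and 1210 to 1862 CPM in si-*Snhg18*, and *Tagln* was called lower (log2 fold change -0.51, edgeR adjusted p = 0.0427). With the replicate block 4 of the 8 were called lower, namely *Tagln* (log2 fold change -0.52, adjusted p = 0.00375), *Cnn1* (-0.49, 0.0113), *Des* (-1.76, 0.00154) and *Myh11* (-0.67, 0.0207), and DESeq2 called *Tagln*, *Cnn1* and *Des* lower (adjusted p = 0.00284, 0.0268 and 0.00291). The part of the lower *Tagln*, *Cnn1*, *Des* and *Myh11* levels in the calcium gene results was not tested. Among markers of other cells, the block also called *Acta1*, *Pdgfra*, *Krt18* and *Tek* lower and *Map2* and *Tnnt2* higher (adjusted p 0.00216 to 0.0456). None of these passed the unblocked edgeR fit, while DESeq2 called *Map2* higher (adjusted p = 0.0298). Fibroblast markers summed to 487 to 561 CPM in si-NC and 360 to 466 CPM in si-*Snhg18*, mostly *Pdgfra*. The 7 endothelial markers summed to 12.1 to 13.5 against 11.5 to 14.7 CPM, with *Cldn5* and *Tie1* at 3 reads or fewer in every library, and the 7 leukocyte markers to 3.64 to 4.79 against 4.22 to 6.11 CPM. Cardiac markers summed to 3.55 to 5.96 against 4.46 to 8.90 CPM and epithelial markers to 7.24 to 22.7 against 1.19 to 7.42 CPM. In bulk RNA, fewer cells of a type and less RNA per cell cannot be told apart.

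Among the 45 tested calcium genes, 3 rose and 2 fell after *Snhg18* knockdown. The genes that rose were *Stac*, *Piezo1* and *Trpm7*, which is 6.67% of the tested calcium genes against 3.65% of all 14531 genes tested. Without *Stac*, 2 of 44 (4.55%) rose. The genes that fell were *Cacna1g* and *Atp2b4*, 4.44% against 3.71% of all genes. With the replicate block, 12 calcium genes (26.7%) were called higher and 3 (6.67%) lower, where 13.6% of all genes were called higher and 13.6% lower. Without *Stac* the block called 11 of 44 higher. *Stac* is counted in each number of genes higher that follows in this paragraph. At a change of at least 1.5-fold, the block gave 6 of 45 higher and 2 lower (4.24% and 5.85% of all genes). The fit without the block gave 2 higher and 2 lower at that change (1.72% and 1.95%). DESeq2 called 6 calcium genes higher and 2 lower (6.58% and 6.85% of all genes), and edgeR at an adjusted p under 0.1 also called 6 higher and 2 lower (6.82% and 6.7%). Of the 45 log2 fold changes, 33 were above 0, against 50.8% of all genes, and their median was 0.19 against 0.01 for all genes. Within the same-numbered pairs, 22 calcium genes (48.9%) were higher in all 3 pairs and 6 (13.3%) lower in all 3, against 29.6% and 30% of all genes. In 16 calcium genes (35.6%) the libraries of the groups did not overlap, against 30.9% of all genes. Of the 16, 14 were higher and 2 lower in si-*Snhg18*, where 15.4% of all genes were higher and 15.5% lower. *Stac*, *Cacna1i*, *Trpm6* and *Trpv4* reached the filter level in fewer libraries of one group than of the other, so their inclusion depended partly on the group in which they were higher.

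**Figure D1:**
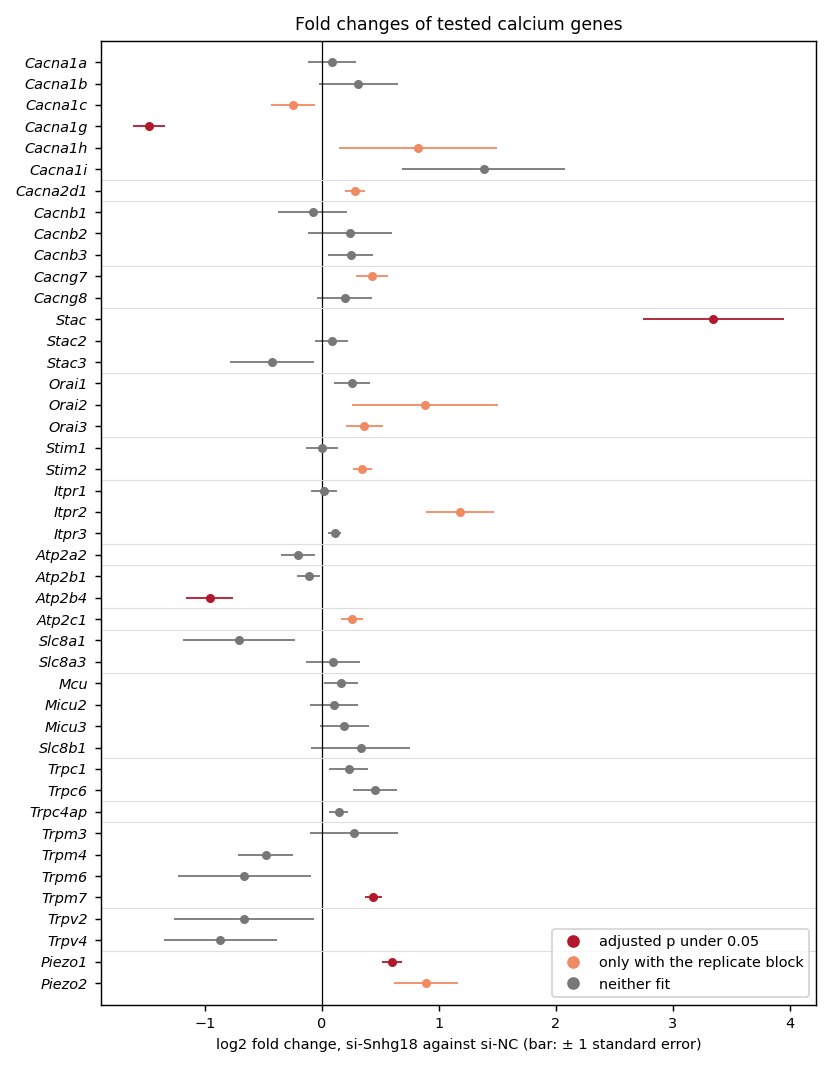
Log2 fold changes of tested calcium genes (x axis, si-*Snhg18* against si-NC, bars ± 1 standard error), grouped by subfamily and coloured by whether the call needed the replicate block. *Stac* lies far to the right at 3.35 and *Cacna1g* far to the left at -1.48, and most other genes lie between -0.5 and 0.5.

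*Stac*, an adaptor of L-type channels known from neurons, had the largest fold change of the set. Its levels were 0.65, 0.33 and 0.80 CPM in si-NC libraries 1 to 3 and 8.94, 2.27 and 7.01 CPM in si-*Snhg18* libraries 1 to 3, from 15, 8 and 19 reads and 226, 59 and 128 reads. The lowest si-*Snhg18* library, number 2, still lay above every si-NC library, and number 2 was the lowest of both groups. The mean went from 0.593 ± 0.244 to 6.08 ± 3.43 CPM (SD, n = 3 libraries each), a log2 fold change of 3.35 (SE 0.604, edgeR adjusted p = 0.0284, exact permutation p = 0.1, the smallest that 3 against 3 can give). Within pairs 1, 2 and 3 the log2 differences were 3.62, 2.51 and 3.00. An antisense gene that shares 299 of its exon bases, *Gm43236*, had 0 reads in every library. *Stac* was named in the gene rule because it rose in earlier results of these data, so its direction is no independent evidence. Its call held without si-*Snhg18* 2 (adjusted p = 0.00474) and was lost when any other library was left out (log2 fold changes 2.95 to 3.63, adjusted p 0.0743 to 0.140) and with limma-voom (adjusted p = 0.0888).

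The other STAC genes did not pass the test. *Stac2* had 12.9, 11.9 and 12.2 CPM in si-NC and 13.3, 10.9 and 15.02 CPM in si-*Snhg18*, and the groups overlapped (log2 fold change 0.08, edgeR adjusted p = 0.768). *Stac3*, which skeletal muscle needs for excitation-contraction coupling, was low, at 0.930 ± 0.251 and 0.684 ± 0.168 CPM (SD, n = 3 each, edgeR adjusted p = 0.505). In TPM, a level per transcript length, *Stac* went from 4.54% ± 1.65 to 30.7% ± 12.2 of the STAC total, and *Stac2* from 83.5% ± 4.21 to 62.6% ± 9.65 (SD, n = 3 each). Both shares separated the groups, and the shares of a subfamily add up to a fixed total, so they are not independent of each other (exact permutation p = 0.1 each). The skeletal muscle genes *Myod1*, *Myog*, *Ckm*, *Myh4* and *Tnni2* had 3 reads or fewer in every library, and the 8 listed skeletal genes summed to 39.1 to 63.4 CPM in si-NC and 12.03 to 51.8 CPM in si-*Snhg18*, nearly all of it *Acta1*. Neuronal markers summed to 4.41 to 5.64 CPM in si-NC and 6.30 to 12.1 CPM in si-*Snhg18*, mostly *Map2*, with *Rbfox3* at 3 reads or fewer in every library. *Map2* had 4.87, 8.84 and 4.88 CPM in si-*Snhg18* libraries 1 to 3. The part of the neuronal markers in the rise of *Stac* was not tested.

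*Piezo1*, the mechanically gated cation channel that senses stretch and shear, was among the most abundant transcripts of the set and rose by 51.4%. It had 523, 607 and 508 CPM in si-NC libraries 1 to 3 and 806, 851 and 822 CPM in si-*Snhg18* libraries 1 to 3. Every si-*Snhg18* library was above every si-NC library, and number 2 was the highest of both groups. The means were 546 ± 53.2 and 826 ± 22.6 CPM (SD, n = 3 each), with a log2 fold change of 0.60 (SE 0.0858, edgeR adjusted p = 0.0166). Without si-NC 1, si-NC 3 or si-*Snhg18* 3 the adjusted p was over 0.05, at most 0.111, with log2 fold changes of 0.55 to 0.68 over all libraries left out. *Piezo1* shares 2441 exon bases, 24.57% of its annotated exon length, with *Ctu2* on the opposite strand, and *Ctu2* had at most 502 reads in a library against up to 22122 for *Piezo1*. The strand setting of the counting was not stated.

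*Piezo2*, its much less abundant relative, passed in edgeR with the replicate block but not without it. Its levels were 2.55, 2.33 and 3.601 CPM in si-NC and 6.85, 4.27 and 4.60 CPM in si-*Snhg18*. The groups did not overlap, and si-*Snhg18* 1 was the highest. The log2 fold change was 0.89 (SE 0.276), with an edgeR adjusted p of 0.109 without and 0.0339 with the block, and 0.0391 in DESeq2. Without si-*Snhg18* 2, its adjusted p was 0.0467 in the unblocked fit, and 7 calcium genes were then called higher. Calls rose across all genes in that fit, to 1545 of 14832 higher and 1737 lower. With all 6 libraries they were 530 of 14531 higher and 539 lower.

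*Trpm7*, a magnesium- and calcium-permeable channel fused to a kinase, rose by 35.7%. It had 109, 119 and 106 CPM in si-NC libraries 1 to 3 and 157, 147 and 150 CPM in si-*Snhg18* libraries 1 to 3. The lowest si-*Snhg18* library was above the highest si-NC library. The log2 fold change was 0.44 (SE 0.0697, edgeR adjusted p = 0.0205), and leaving out a library gave 0.41 to 0.49, with the call kept only without si-*Snhg18* 2 (adjusted p 0.0117 to 0.128). *Trpm7* made up 85.0% ± 2.90 of the tested TRPM transcripts by TPM in si-NC and 91.2% ± 1.66 in si-*Snhg18* (SD, n = 3 each, groups separate, exact permutation p = 0.1).

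*Cacna1g*, the pore of a T-type channel that opens at low voltage, fell to 35.8% of its si-NC level. It had 13.1, 15.2 and 13.6 CPM in si-NC libraries 1 to 3 and 4.59, 5.50 and 4.93 CPM in si-*Snhg18* libraries 1 to 3. The groups were far apart and the libraries within each were close together. The log2 fold change was -1.48 (SE 0.137, edgeR adjusted p = 0.00733), and the 3 pairs gave -1.50, -1.46 and -1.44. Leaving out a library gave -1.56 to -1.42, and the adjusted p was over 0.05 without si-NC 1, si-NC 3 or si-*Snhg18* 3, at most 0.0753.

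*Atp2b4*, a plasma membrane calcium pump, fell by 48.7%, from a low level. Its values were 3.97, 3.39 and 4.45 CPM in si-NC libraries 1 to 3 and 1.86, 2.11 and 2.08 CPM in si-*Snhg18* libraries 1 to 3. All si-*Snhg18* libraries lay below all si-NC libraries. The log2 fold change was -0.96 (SE 0.201, edgeR adjusted p = 0.0408), with -1.06 to -0.86 when a library was left out. This call held without si-*Snhg18* 2 (adjusted p = 0.0299) and was lost without any other library, up to an adjusted p of 0.174. By TPM *Atp2b4* was 1.65% ± 0.377 of the tested plasma membrane pumps in si-NC and 0.909% ± 0.0369 in si-*Snhg18* (SD, n = 3 each), the rest being *Atp2b1*.

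**Figure D2:**
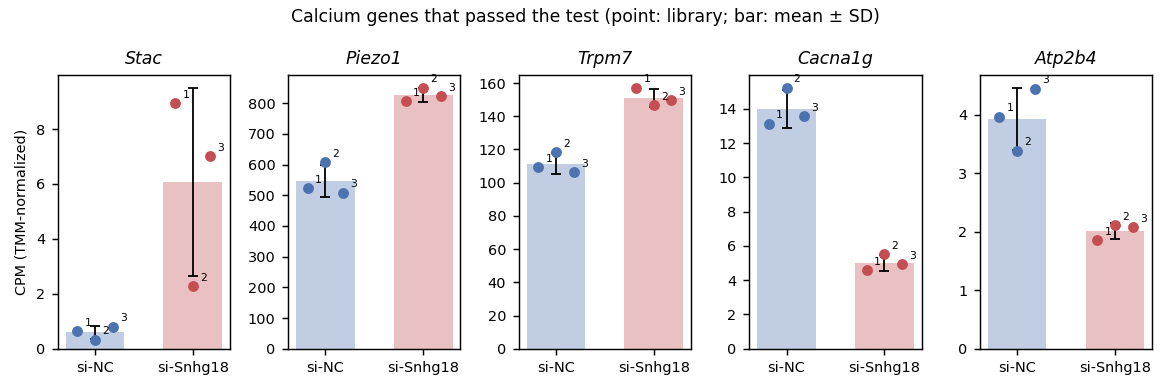
TMM-normalized CPM (y axis, from 0) of the 5 calcium genes that passed the unblocked test, with 1 point per library marked by its number and bars at the group mean ± SD (n = 3). No si-*Snhg18* library overlaps a si-NC library in any panel, and si-*Snhg18* 2 is the low point of *Stac* at 2.27 CPM.

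In GRCm38 these genes lie on the minus strand, *Stac* on chromosome 9 from 111561437 to 111690348, *Piezo1* on chromosome 8 from 122481698 to 122551329, *Trpm7* on chromosome 2 from 126791565 to 126876230, *Cacna1g* on chromosome 11 from 94408391 to 94474198 and *Atp2b4* on chromosome 1 from 133699457 to 133801041. The promoters of 4 of these 5 genes are shown because their transcripts moved after the knockdown. They are RefSeq windows on GRCm38.p6 from 250 bases before to 50 bases after the annotated start, all on the minus strand and written 5′ to 3′ along the gene. The table held no window for *Cacna1g*. Capitals mark GC boxes (GGGCGG, or CCGCCC on the other strand), TATAAA on the strand shown and CACGTG, and positions count from the start as 0. The windows are chr9:111690299-111690598 for *Stac*, chr8:122551280-122551579 for *Piezo1*, chr2:126876212-126876511 for *Trpm7* and chr1:133753698-133753997 for *Atp2b4*.
Stac promoter: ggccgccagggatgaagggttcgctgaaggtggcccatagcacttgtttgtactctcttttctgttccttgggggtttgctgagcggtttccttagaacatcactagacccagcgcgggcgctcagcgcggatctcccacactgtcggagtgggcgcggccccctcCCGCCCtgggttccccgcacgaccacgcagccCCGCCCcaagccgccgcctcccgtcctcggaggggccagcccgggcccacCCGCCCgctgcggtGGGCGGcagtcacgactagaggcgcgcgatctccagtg
Piezo1 promoter: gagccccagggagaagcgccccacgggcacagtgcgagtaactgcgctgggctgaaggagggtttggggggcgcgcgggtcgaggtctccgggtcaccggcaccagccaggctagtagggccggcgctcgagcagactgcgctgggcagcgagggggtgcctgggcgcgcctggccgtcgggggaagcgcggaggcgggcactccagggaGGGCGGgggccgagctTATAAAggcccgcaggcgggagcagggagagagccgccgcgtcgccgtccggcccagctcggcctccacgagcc
Trpm7 promoter: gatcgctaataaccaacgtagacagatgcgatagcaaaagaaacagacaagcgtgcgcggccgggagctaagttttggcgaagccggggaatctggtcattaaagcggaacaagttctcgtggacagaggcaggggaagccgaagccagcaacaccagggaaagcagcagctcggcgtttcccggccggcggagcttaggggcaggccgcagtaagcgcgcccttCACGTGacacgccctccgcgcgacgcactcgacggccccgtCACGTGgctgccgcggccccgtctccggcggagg
Atp2b4 promoter: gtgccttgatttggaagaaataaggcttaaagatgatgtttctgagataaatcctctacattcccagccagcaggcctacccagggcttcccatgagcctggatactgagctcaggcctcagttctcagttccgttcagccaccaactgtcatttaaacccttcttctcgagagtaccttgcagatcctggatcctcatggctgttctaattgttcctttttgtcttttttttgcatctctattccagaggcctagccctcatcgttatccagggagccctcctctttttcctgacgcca

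The *Stac* window has 4 GC boxes, which begin at -84, -52, -2 and 12, and its GC content is 68.7%. At least 4 GC boxes were found in 5.49% of the 32851 windows and in 16.2% of the 80 windows of calcium genes, while at least 1 was found in 35.7% and 48.8%. The median GC content was also lower in all windows, at 52.7%, than in those of calcium genes, at 59.9%. The *Piezo1* window has a GC box at -40 and TATAAA at -24, and TATAAA on either strand occurs in 13.6% of all windows. In the *Trpm7* window CACGTG, which contains ACGTG on both strands, occurs at -25 and 16. At least 2 copies of CACGTG were found in 0.594% of all windows and in 2 of the 80 windows of calcium genes (2.5%), including that of *Trpm7*. The shorter ACGTG occurs on either strand in 19.6% of all windows. The *Atp2b4* window, with 47.7% GC, holds none of these letters and lies inside the gene span of the count table, away from its 5′ end. Windows were found for 63 of the 82 calcium genes. A match describes letters only, and the windows were not assayed.

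The other pore-forming subunits of the voltage-gated channels moved less evenly. *Cacna1c*, the L-type pore of vascular smooth muscle, had 61.7, 48.9 and 63.2 CPM in si-NC and 57.5, 36.6 and 52.2 CPM in si-*Snhg18*. Number 2 was the lowest of both groups and the groups overlapped, but each si-*Snhg18* library was below its same-numbered partner. The log2 fold change was -0.25, with an edgeR adjusted p of 0.456 without and 0.0468 with the block.

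*Cacna1h*, another T-type pore, had 16.2, 4.94 and 16.1 CPM in si-NC and 32.8, 6.19 and 27.1 CPM in si-*Snhg18*. Library 2 was far below libraries 1 and 3 in both groups, and within each number si-*Snhg18* was higher. The unblocked log2 fold change was 0.82 (SE 0.676, edgeR adjusted p = 0.494), and with the block it was 0.73 (adjusted p = 0.00957). In the TPM of the 6 tested pores, *Cacna1g* went from 19.1% ± 3.94 to 7.53% ± 2.75 and *Cacna1c* from 48.0% ± 1.06 to 42.9% ± 0.876, both without overlap (SD, n = 3 each, exact permutation p = 0.1). *Cacna1h* went from 15.9% ± 7.26 to 28.6% ± 14.6, with overlap. *Cacna1g* was thus called lower in both fits, and *Cacna1h* was called higher only with the block. *Cacna1i*, the remaining T-type pore, had 3, 11 and 1 reads in si-NC and 13, 13 and 12 in si-*Snhg18*, without overlap in CPM, and did not pass (log2 fold change 1.38, edgeR adjusted p = 0.278 without and 0.152 with the block).

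Of the auxiliary subunits, *Cacna2d1*, the only tested alpha-2-delta gene, had 50.04, 56.5 and 55.0 CPM in si-NC and 61.5, 69.75 and 65.05 CPM in si-*Snhg18*. The groups did not overlap, with a log2 fold change of 0.28 and an edgeR adjusted p of 0.0987 without and 0.0157 with the block. *Cacng7*, a gamma subunit known mainly as a regulator of AMPA receptors, went from 27.6 ± 2.25 to 37.1 ± 6.25 CPM (SD, n = 3 each), with an edgeR adjusted p of 0.119 without and 0.0116 with the block. *Cacnb3*, a beta subunit, was the most abundant channel subunit per length at 157 and 185 TPM and did not pass in either fit (log2 fold change 0.24, edgeR adjusted p = 0.477 and 0.0677).

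Store-operated entry was represented by 5 genes, all of them tested. *Orai1*, the classical store-operated pore, had 27.1, 24.0 and 26.7 CPM in si-NC and 34.4, 24.2 and 34.1 CPM in si-*Snhg18*. Its groups overlapped through si-*Snhg18* 2 (log2 fold change 0.25, edgeR adjusted p = 0.358), and without that library the value was 0.40 with an adjusted p of 0.0302. *Orai2* had 68.5, 27.6 and 77.6 CPM in si-NC and 170, 32.7 and 117 CPM in si-*Snhg18*. As in *Cacna1h*, library 2 was low in both groups and si-*Snhg18* was the higher of each pair, by 1.31, 0.25 and 0.59 on the log2 scale for pairs 1, 2 and 3. The edgeR adjusted p was 0.430 without the block and 0.0211 with it.

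*Orai3*, the remaining ORAI pore, showed the opposite order of libraries, at 20.6, 22.9 and 21.8 CPM in si-NC and 23.4, 34.5 and 26.03 CPM in si-*Snhg18*. The groups did not overlap, and si-*Snhg18* 2 was the highest (log2 fold change 0.36, edgeR adjusted p = 0.217 without and 0.0492 with the block). The shares of the 3 pores in the ORAI total overlapped between the groups, and the *Orai2* share was 22.5% and 21.7% in the libraries numbered 2 against 41.5% to 59.2% in the others.

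The sensors differed from each other. *Stim1*, the main sensor of the store, had 47.1, 43.3 and 49.8 CPM in si-NC and 54.6, 38.7 and 47.3 CPM in si-*Snhg18*, with a log2 fold change of 0.00 (SE 0.137, edgeR adjusted p = 0.990). *Stim2*, which responds to smaller losses of store calcium, had 42.1, 42.0 and 47.9 CPM in si-NC and 53.8, 58.3 and 55.7 CPM in si-*Snhg18*. All si-*Snhg18* libraries were above all si-NC libraries, and the log2 fold change was 0.35 (SE 0.0835, edgeR adjusted p = 0.0593 without and 0.0148 with the block). By TPM *Stim2* made up 43.8% ± 1.09 of the pair in si-NC and 49.9% ± 5.30 in si-*Snhg18* (SD, n = 3 each, no overlap, exact permutation p = 0.1).

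The inositol trisphosphate receptors were all expressed. *Itpr2* had 64.9, 40.9 and 61.5 CPM in si-NC and 159, 79.7 and 142 CPM in si-*Snhg18*. Each si-*Snhg18* library exceeded every si-NC library, and number 2 was the lowest of both groups. The means were 55.7 ± 13.0 and 127 ± 41.5 CPM (SD, n = 3 each), with a log2 fold change of 1.18 (SE 0.291). The edgeR adjusted p was 0.0617 without the block and 0.000504 with it, without si-*Snhg18* 2 it was 0.00790, and in DESeq2 it was 0.00101. *Itpr1* (43.2 ± 1.39 and 43.7 ± 6.13 CPM, edgeR adjusted p = 0.951) and *Itpr3* (114 ± 2.06 and 123.3 ± 1.296 CPM, adjusted p = 0.279) did not pass. *Itpr3* remained the most abundant per length, and its share of the ITPR total was 58.2% ± 2.71 in si-NC and 47.7% ± 5.33 in si-*Snhg18*, while that of *Itpr2* was 21.7% ± 4.24 and 36.8% ± 9.15 (SD, n = 3 each, no overlap, exact permutation p = 0.1 each). The ryanodine receptors were near the limit of detection, with at most 14 reads of *Ryr1*, 3 of *Ryr2* and 4 of *Ryr3* in a library.

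**Figure D3:**
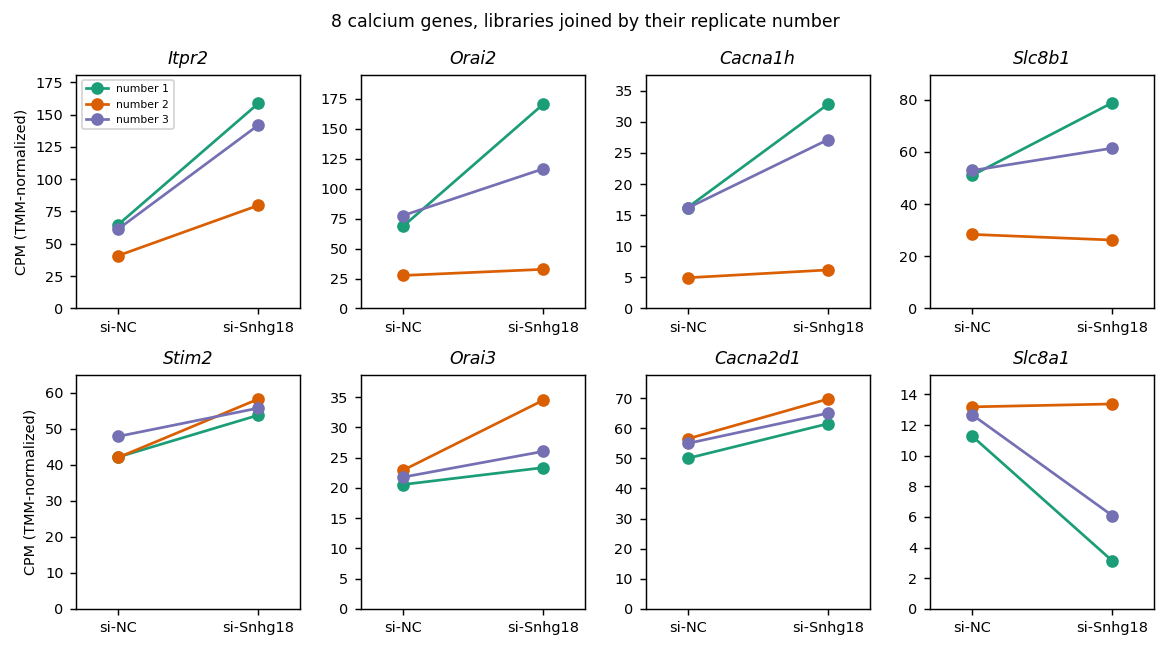
TMM-normalized CPM (y axis, from 0) of 8 calcium genes in si-NC and si-*Snhg18*, with the same-numbered libraries joined by a line. The lines of *Itpr2*, *Orai2* and *Cacna1h* all slope upward while library 2 runs far below the others, and the lines of *Slc8a1* fall for numbers 1 and 3 and stay level for number 2.

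The pumps and exchangers gave 1 called gene, *Atp2b4*. *Atp2a2*, the SERCA pump of smooth muscle, was the most abundant gene of the set per length at 246 ± 15.9 TPM in si-NC and 212 ± 32.0 TPM in si-*Snhg18* (SD, n = 3 each). Its levels overlapped, at 607, 542 and 631 CPM in si-NC and 612, 419 and 514 CPM in si-*Snhg18* (log2 fold change -0.21, edgeR adjusted p = 0.426). *Atp2b1*, the main plasma membrane pump here, had 145 ± 17.0 and 134 ± 6.915 CPM (SD, n = 3 each, edgeR adjusted p = 0.520). *Atp2c1*, the Golgi calcium and manganese pump, had 114, 116 and 124 CPM in si-NC and 156, 125 and 141 CPM in si-*Snhg18*, without overlap, and an edgeR adjusted p of 0.163 without and 0.04995 with the block. *Atp2c1* shares 1837 exon bases with *Aste1* on the opposite strand, which had at most 203 reads in a library.

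*Slc8a1*, the sodium-calcium exchanger, had 11.3, 13.2 and 12.7 CPM in si-NC and 3.13, 13.4 and 6.08 CPM in si-*Snhg18*. Libraries 1 and 3 of si-*Snhg18* were below all si-NC libraries and library 2 was level with the highest of them. The log2 fold change was -0.71 (SE 0.479, edgeR adjusted p = 0.406), and without si-*Snhg18* 2 it was -1.45 (adjusted p = 0.0192).

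In mitochondria, calcium is taken up by the uniporter *Mcu* and returned to the cytosol by the exchanger *Slc8b1*. Neither gene passed either edgeR fit. *Mcu* had 19.2, 18.2 and 20.1 CPM in si-NC and 25.1, 17.5 and 21.8 CPM in si-*Snhg18*, with overlap (log2 fold change 0.16, edgeR adjusted p = 0.534). *Slc8b1* was low in the libraries numbered 2 of both groups, at 28.4 and 26.2 CPM against 51.0 to 78.9 CPM in the others (edgeR adjusted p = 0.672).

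Receptor-operated TRPC channels were low. *Trpc1* had 3.195, 3.31 and 3.69 CPM in si-NC and 3.84, 4.00 and 4.11 CPM in si-*Snhg18*, and *Trpc6*, which diacylglycerol opens, had 2.33, 2.21 and 2.42 CPM against 2.89, 3.42 and 3.23 CPM. Neither gene's groups overlapped, but neither passed in either fit (edgeR adjusted p = 0.441 and 0.198 without the block, 0.391 and 0.164 with it). *Trpv4*, a channel opened by swelling and lipids, was at 0.739 ± 0.253 and 0.414 ± 0.212 CPM (SD, n = 3 each, edgeR adjusted p = 0.318), and *Trpv2* overlapped between the groups (adjusted p = 0.530). *Trpc4ap*, a ubiquitin ligase adaptor and not a channel, had 166 ± 11.3 and 183 ± 11.2 CPM (adjusted p = 0.335).

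Per length, the highest levels of the set were *Atp2a2*, *Piezo1* and *Cacnb3*. In si-NC the order was *Atp2a2* at 246 TPM, then *Cacnb3* at 157 and *Piezo1* at 156 TPM, which lay within each other's spread, then *Trpc4ap* at 122 and *Atp2c1* at 99.5 TPM. In si-*Snhg18* *Piezo1* was first at 236 ± 15.1 TPM, with *Atp2a2* at 212 ± 32.0 TPM overlapping it (SD, n = 3 each). The 82 genes together took 0.2653% to 0.2743% of the reads in si-NC and 0.2967% to 0.3371% in si-*Snhg18*, without overlap. The largest single rise in mean CPM among them was that of *Piezo1*, from 546 to 826 CPM.

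**Figure D4:**
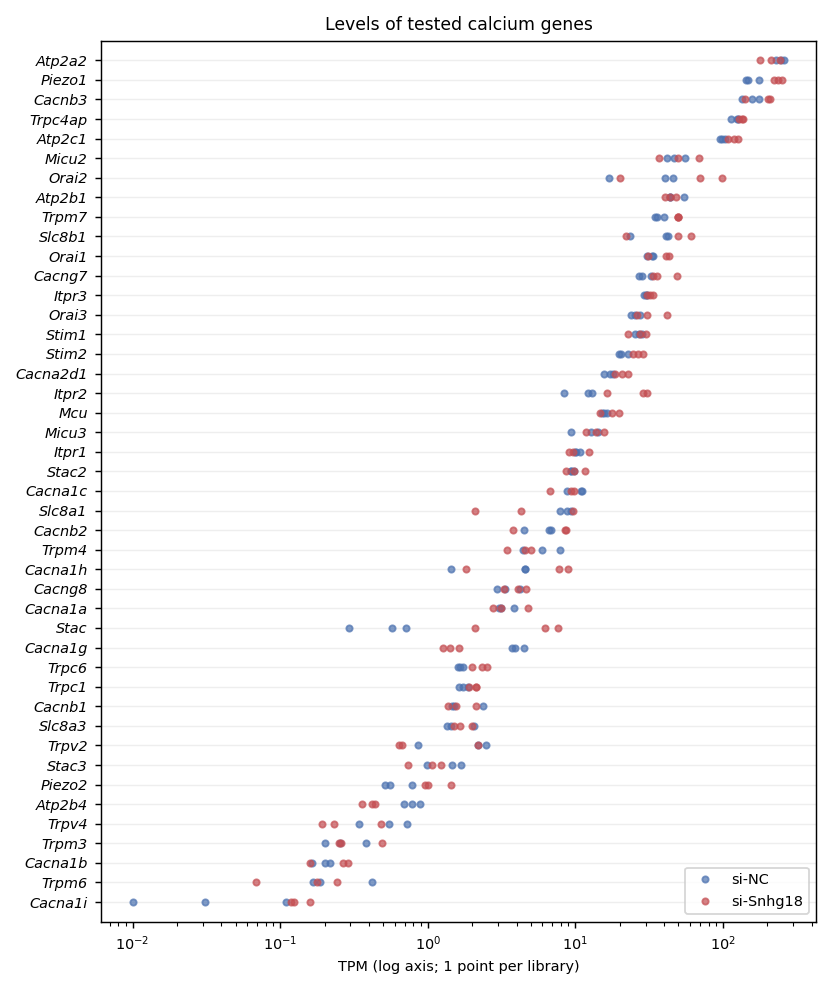
Level per length of tested calcium genes (x axis, TPM on a log scale, 1 point per library), ordered by mean TPM. The genes run from *Cacna1i*, at a mean of 0.0918 TPM, to *Atp2a2*, at 229 TPM, and the points of *Stac*, *Cacna1g*, *Piezo1* and *Trpm7* separate by group.

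The make-up of the subfamilies was compared with shares of TPM, which do not depend on the scaling between libraries. Of 41 shares, 6 were higher and 9 lower in all si-*Snhg18* libraries than in all si-NC libraries, which is 36.6%. Shares of a subfamily add up to a fixed total. Those of *Atp2b1* and *Atp2b4*, of *Stim1* and *Stim2*, and of *Trpc1* and *Trpc6* therefore separate together and are counted as separate shares. For CPM, a different quantity measured on single genes, 30.9% of all genes did not overlap. That percentage is close to the count of shares but is not a matched background for it. Without si-*Snhg18* 2 the number was 26 in place of 15. Leaving out a library can only keep or add separated shares, so this does not test the 15.

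**Figure D5:**
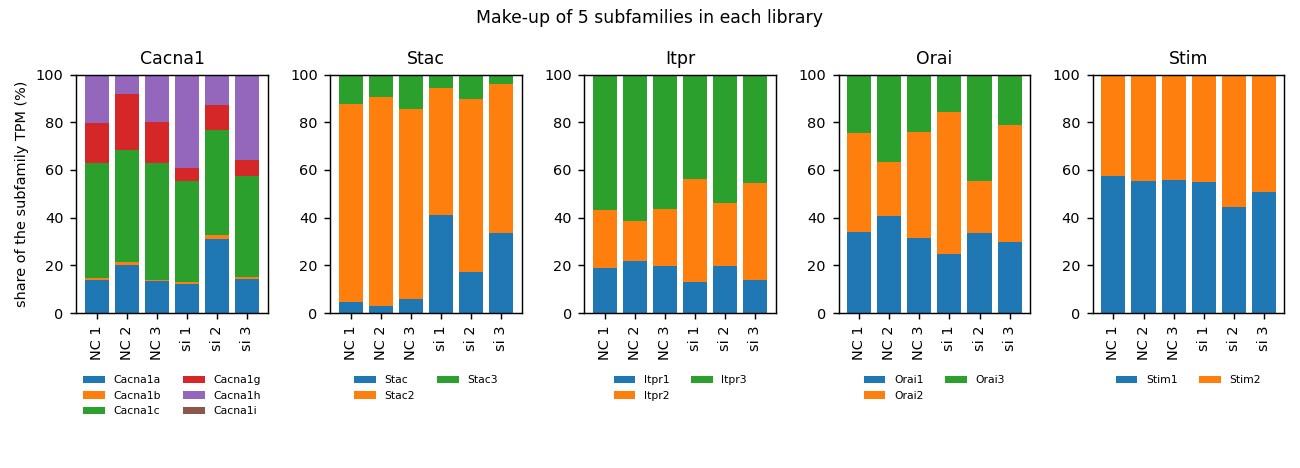
Share of each tested member in the TPM of its subfamily (y axis, percent) in each of the 6 libraries, for the voltage-gated pores, STAC, ITPR, ORAI and STIM genes. The *Stac* part is under 7% in every si-NC library and over 17% in every si-*Snhg18* library, while the ORAI bars differ more by library number than by group.

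The 37 genes that were not tested included 10 without a read in any library, 14 with at most 3 reads and 13 with more, up to 17 for *Atp2a3*. They held all 3 ryanodine receptors, *Cacna1d* and *Cacna1s* among the L-type pores, *Cacna1e*, *Trpc4*, *Trpc5*, *Trpc7*, *Trpm2*, *Trpm8* and *Trpv1*. *Ryr1*, with 14, 10 and 10 reads in si-NC and 7, 3 and 6 in si-*Snhg18*, and *Trpm2*, with 5, 8 and 7 against 5, 2 and 3 reads, did not overlap between the groups in CPM. Both were below the filter of the edgeR fit.

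Beyond the channels and pumps, 86 of 107 listed partner genes of calcium handling were tested, such as calmodulin, calcineurin, phospholipase C and store proteins. With edgeR 3 rose (3.49% against 3.65% of all genes) and 5 fell (5.81% against 3.71%). *Calr*, the calcium-binding chaperone of the endoplasmic reticulum, had 1605, 1473 and 1608 CPM in si-NC and 966, 916 and 886 CPM in si-*Snhg18* (log2 fold change -0.76, edgeR adjusted p = 0.00742). *Canx*, its membrane-bound relative, fell by 0.38, and the calcium-binding proteins *Rcn3* and *Nucb1* fell by 0.56 and 0.51 on the log2 scale (edgeR adjusted p = 0.0427, 0.00995 and 0.0163). *Cav2*, a caveolin, went from 40.4 ± 7.35 to 17.0 ± 4.27 CPM (SD, n = 3 each, edgeR adjusted p = 0.0250). *Plcg1*, which makes inositol trisphosphate, rose by 0.68, the calcineurin subunit *Ppp3cc* by 0.75 and the calcium-binding *S100a6* by 0.33 on the log2 scale (edgeR adjusted p = 0.0133, 0.0265 and 0.0410). With the replicate block 12 partner genes (14%) were called higher and 15 (17.4%) lower, against 13.6% and 13.6% of all genes.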

How the data were processed

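RNA of 6 libraries (3 si-NC, 3 si-*Snhg18*) was prepared as stranded mRNA libraries. Per the labels, HISAT2 and mm10 were used, without a version. The authors deposited raw read counts per gene as whole numbers, with exon length and GRCm38.p6 position. The counting program and strand setting are not given in the sources used here, so reads of genes overlapping on opposite strands may be shared.

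Genes were filtered with filterByExpr (minimum count 10), scaled by TMM and fitted with the quasi-likelihood test of edgeR 4.0.16 in R 4.3.3, on all 6 libraries and with group as the only term. P-values were adjusted by Benjamini-Hochberg over 14531 genes at 0.05. The common biological coefficient of variation was 0.218. Log2 CPM values had a prior count of 2. TPM values were computed from the counts and the deposited exon lengths. Floors of 3 reads cover counting error only.

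Group and replicate number came from the sample labels. The fit with the replicate block was an alternative, as was DESeq2 1.42.0, limma-voom (limma 3.58.1), RLE factors, library totals, other filters and thresholds, and leaving out each library. Deviations from the group mean correlated positively in all 3 same-numbered pairs (0.41, 0.742 and 0.359). These values do not show that numbers 1 and 3 mark pairs, and the labels name no shared culture. Libraries of a group differed by more than counting noise (chi-square per degree of freedom 5.93 to 102).

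Genes were named by a rule: *Snhg18*, members called by the unblocked fit or called with the block at 1.5-fold or more, the STAC genes, the most abundant member of each subfamily, 18 genes known in smooth muscle and called partner genes. The other genes called with the block, *Cacna1i*, *Slc8b1*, the untested genes and the marker genes fall outside it and were named after their values were seen. Some members that the rule would name are not reported here. Members, partner and marker lists were chosen with earlier results of these data known. Exon overlaps come from GENCODE M21, where 80 of 82 members have the same coordinates, and promoters from RefSeq (GRCm38.p6). The scripts were tested on simulated data.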

Additional observations from a re-analysis of the deposited data

How the results depend on the processing

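The fit with the replicate block, which pairs the libraries by number, gave 12 calcium genes higher (3 without it), 12 partner genes higher (3) and 15 partner genes lower (5), and kept the number of calcium genes lower within 1.5 times. DESeq2 gave 6 calcium genes higher, 6 partner genes higher and 11 lower. At an adjusted p under 0.1 there were 6 calcium genes higher, 7 partner genes higher and 9 lower. Of all genes, the block, DESeq2 and this threshold called 13.6%, 6.58% and 6.82% higher and 13.6%, 6.85% and 6.7% lower. At least a 1.5-fold change left 2 partner genes lower, library totals gave 5 partner genes higher, and testing every gene with a read left 1 calcium gene lower, *Cacna1g*. In that order, these settings called 1.95% of all genes lower, 613 of 14531 higher and 474 of 25015 lower. Over the 6 fits that omit a library, the unblocked edgeR fit called 0 to 7 calcium genes higher, 0 to 3 lower, 0 to 10 partner genes higher and 0 to 16 lower. The zeros came without si-NC 1, si-NC 3 or si-*Snhg18* 3, where 5 to 8 calcium genes higher, 2 or 3 lower, 7 or 8 partner genes higher and 10 to 13 lower still had an unadjusted p under 0.05, and for partner genes higher also without si-NC 2 (10 unadjusted). Without si-NC 1, si-NC 3 or si-*Snhg18* 3, 14851 to 14950 genes were tested. Of these, 1239 to 1388 were higher and 1186 to 1343 lower at an unadjusted p under 0.05. Without si-NC 2, 1432 of 14840 genes were higher at that level. The largest numbers came without si-*Snhg18* 2, where 1545 of 14832 genes were called higher and 1737 lower. *Stac* kept its direction throughout, at 2.95 to 3.74 on the log2 scale when a library was left out, and 3.15 with limma-voom (adjusted p = 0.0888). The shares without overlap numbered 15, and 15 to 26 when a library was left out, which can only keep or add such shares. Named genes near 0 changed sign. *Stim1* (0.00) was -0.009928 with limma-voom, -0.01007 without a filter, -0.006942 with the block and -0.05038, -0.1212 and -0.003894 without si-NC 2, si-*Snhg18* 1 and si-*Snhg18* 3. *Itpr1* was -0.004653 without si-NC 1 and -0.1104 without si-*Snhg18* 2, and *Stac2* was -0.02794 without si-*Snhg18* 3. The highest values with a library omitted were 0.1222, 0.08209 and 0.1928 for *Stim1*, *Itpr1* and *Stac2*. Over the other settings of the named genes except *Stac*, 345 values kept their direction and side of the threshold, 19 moved past it and 17 no longer passed. Most of the 345 belonged to genes not called at first, which stayed uncalled. The 17 all belonged to *Atp2b4*, *Trpm7*, *Cacna1g* and *Piezo1*, which lost their calls in 6, 5, 3 and 3 of 13 settings. The cause was not tested. Depth limits what the genes with few reads can show, and was not tested as a cause of lost calls.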

Other observations

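Partner genes outside the naming rule were called with the replicate block and were chosen here after their values were seen. *Jph2*, a junctophilin that holds the plasma membrane to the endoplasmic reticulum, had 98.6, 128 and 97.02 CPM in si-NC and 48.5, 87.4 and 61.4 CPM in si-*Snhg18*, with a log2 fold change of -0.74 in the blocked edgeR fit (adjusted p = 0.00211, and 0.117 without the block). *P2rx4*, an ATP-gated cation channel, had 34.3, 48.1 and 34.7 CPM against 13.3, 28.3 and 19.6 CPM (-0.98, adjusted p = 0.00248 with and 0.106 without the block). *Camkk2*, a kinase activated by calmodulin, was higher in si-*Snhg18* in each pair, at 14.5, 21.97 and 15.3 CPM against 24.2, 41.8 and 28.1 CPM (0.85, adjusted p = 0.00128 with and 0.0967 without the block). *Tpcn1*, an endolysosomal cation channel, had 58.4, 85.1 and 57.5 CPM in si-NC and 73.8, 113 and 81.2 CPM in si-*Snhg18* (0.41, adjusted p = 0.00379 with and 0.292 without the block). In all 4 genes library 2 was the highest of both groups.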
